A study of Mus musculus with 12 samples.

Results

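The acid-base genes of the intercalated cells were followed in RNA-seq libraries of whole mouse kidney. The set held 10 genes, taken by symbol from the 24421 gene symbols in the deposited matrices, and for each symbol the transcript with the highest total count was read. Its members were *Foxi1*, *Slc4a1*, *Slc26a4*, *Slc4a9*, *Rhbg*, *Rhcg* and the V-ATPase subunit genes *Atp6v1b1*, *Atp6v0a4*, *Atp6v0d2* and *Atp6v1g3*. The 12 libraries came from kidneys of C57BL/6 male mice at 6 weeks old and fell into 4 groups of 3. WT and *Tet2*-/- mice were sampled as healthy controls without an operation (baseline), and the other 2 groups of both genotypes were sampled 24 h after a kidney ischemia that lasted 60 min (IR). *Tet2* encodes an enzyme that oxidises methylated cytosine, and the *Tet2*-/- mice were bred from heterozygous pairs, so the allele is not limited to the kidney. In the IR operation the pedicle of the right kidney was clamped and the left kidney was taken out after the clamp was released, so the effects of ischemia, surgery and the loss of the other kidney cannot be told apart against unoperated controls.

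Intercalated cells are the acid-base cells of the collecting duct and connecting tubule. They pump protons with a V-ATPase, a rotary pump made of a cytosolic V1 part that splits ATP and a membrane V0 part that carries the protons. In type A cells the pump faces the urine and the chloride-bicarbonate exchanger AE1, the product of *Slc4a1*, returns bicarbonate to the blood. In type B cells pendrin, the product of *Slc26a4*, secretes bicarbonate into the urine, and AE4, the product of *Slc4a9*, lies in the opposite membrane. Rhbg and Rhcg carry ammonia across the basolateral and apical membranes of collecting duct cells. FOXI1 is the forkhead transcription factor on which the intercalated cell fate depends. In whole kidney RNA, fewer intercalated cells and less RNA per cell cannot be told apart.

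The libraries held between 51007366 and 107969888 counts over 1 transcript per gene. *Tet2* itself was not lower at baseline in the libraries labelled *Tet2*-/-, and all 3 of them lay above the 3 WT libraries. Its level was 9.15, 6.25 and 7.33 FPKM (read fragments scaled to transcript length and library size) in the 3 WT baseline libraries and 9.25, 16.6 and 10.3 FPKM in the 3 baseline libraries labelled *Tet2*-/-. After IR it was 9.34, 3.97 and 3.86 FPKM in WT and 2.64, 3.20 and 1.76 FPKM in the libraries labelled *Tet2*-/-. Which part of the gene the allele lacks is not given in the sources used here, so this whole-transcript level does not check the labels, and the libraries are called by their labels. Fat cell RNA differed between libraries, with a summed level of 5 adipocyte genes of 37.8 and 121 FPKM in WT baseline replicates 2 and 3, 151 FPKM in *Tet2*-/- IR replicate 3 and between 0.135 and 8.11 FPKM in the other libraries.

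All 10 genes were well above zero in the uninjured kidney, and the order of their levels in WT baseline kidneys was led by the a4 subunit of the pump. In that group the mean level was 61.1 ± 24.4 FPKM (SD, n = 3) for *Atp6v0a4* and 38.4 ± 2.85 FPKM for *Rhcg*, whose ranges overlapped. *Atp6v1b1* at 26.1 ± 6.70 FPKM, *Atp6v1g3* at 24.4 ± 1.64 FPKM and *Slc4a9* at 24.4 ± 2.53 FPKM followed, and each overlapped the next. *Rhbg* at 14.3 ± 0.612 FPKM, *Slc26a4* at 12.4 ± 4.79 FPKM, *Slc4a1* at 8.10 ± 0.781 FPKM, *Foxi1* at 7.91 ± 0.152 FPKM and *Atp6v0d2* at 7.83 ± 1.52 FPKM formed the lower end, again with each range overlapping that of its neighbour. The ranges did not overlap between *Rhcg* and *Atp6v1b1* or between *Slc4a9* and *Rhbg*. After IR in mice labelled *Tet2*-/- the order was different. *Atp6v1g3* stood next to *Atp6v0a4* with 30.4 ± 7.38 FPKM, *Rhcg* in the sixth place with 12.8 ± 9.23 FPKM and *Slc4a1* in the last with 0.940 ± 0.942 FPKM, below and not overlapping *Foxi1* at 9.22 ± 1.29 FPKM.

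On mm9, the build of the files, *Slc4a1* lies at chr11:102210134-102226595 on the minus strand, *Rhcg* at chr7:86738249-86762543 on the minus strand and *Atp6v1b1* at chr6:83693011-83708804 on the plus strand. *Foxi1* lies at chr11:34104341-34108089, *Slc26a4* at chr12:32204684-32244834, *Atp6v0d2* at chr4:19803985-19849713, *Atp6v0a4* at chr6:37998483-38074586, *Atp6v1g3* at chr1:140170315-140186039 and *Rhbg* at chr3:88046796-88058606. *Slc4a9* was the only member with more than 1 deposited transcript, and had 5. The values are sums over whole transcripts, exons and untranslated ends included, so the red cell and kidney forms of AE1 are not separated by the *Slc4a1* row.

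Promoters of 6 of the 10 genes were in the RefSeq table used here, and those of *Slc4a1*, *Atp6v0d2*, *Rhbg* and *Slc4a9* were not. The 250 bases before the start of 4 genes are shown because *Rhcg* and *Atp6v1b1* had low levels in the same *Tet2*-/- IR kidneys, whereas *Slc26a4* and *Atp6v1g3* had no such low levels. Each is written 5′ to 3′ on GRCm38.p6, a later build than that of the count files, and capitals mark the forkhead core TGTTTAC.
Rhcg, chr7:79617658-79617907, minus strand: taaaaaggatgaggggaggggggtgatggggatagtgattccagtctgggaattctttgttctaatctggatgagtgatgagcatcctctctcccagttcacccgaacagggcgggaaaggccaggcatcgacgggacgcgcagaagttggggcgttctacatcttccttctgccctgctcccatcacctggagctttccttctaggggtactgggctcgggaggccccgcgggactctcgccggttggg
Atp6v1b1, chr6:83742767-83743016, plus strand: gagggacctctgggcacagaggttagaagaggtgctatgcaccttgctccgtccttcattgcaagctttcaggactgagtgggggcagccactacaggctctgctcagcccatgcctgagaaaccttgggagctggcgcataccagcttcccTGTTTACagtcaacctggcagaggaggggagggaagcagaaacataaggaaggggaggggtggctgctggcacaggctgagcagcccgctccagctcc
Slc26a4, chr12:31559985-31560234, minus strand: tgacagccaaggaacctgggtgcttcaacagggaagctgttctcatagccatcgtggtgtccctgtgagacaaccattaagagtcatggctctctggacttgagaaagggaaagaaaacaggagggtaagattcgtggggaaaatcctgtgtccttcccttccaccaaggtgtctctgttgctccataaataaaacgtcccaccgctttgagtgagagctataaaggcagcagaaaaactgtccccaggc
Atp6v1g3, chr1:138273488-138273737, plus strand: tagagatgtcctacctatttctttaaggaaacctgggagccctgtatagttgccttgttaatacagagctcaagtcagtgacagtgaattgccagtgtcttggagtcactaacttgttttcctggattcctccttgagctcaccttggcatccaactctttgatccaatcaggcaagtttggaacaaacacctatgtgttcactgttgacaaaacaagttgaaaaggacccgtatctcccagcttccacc
The core was searched on both strands, as TGTTTAC and GTAAACA, in the 300 bases from 250 before to 50 after each start. *Atp6v1b1* held it, beginning 98 bases before the start, and the other 5 promoters did not. Over all 32851 promoters in the table, 1199 held the core, or 3.65%. The shorter TGTTTA, which lies inside the longer core, was likewise found in *Atp6v1b1* and in none of the other 5, against 13.4% of all promoters. These matches describe the letters in the window and say nothing of which factor is bound there.

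The genotypes were compared before injury to see whether the intercalated cell genes differed in uninjured kidneys. All 10 genes passed the filter on low counts in every comparison. A call needed both an edgeR quasi-likelihood p that stayed under 0.05 after Benjamini-Hochberg adjustment over all genes tested and a log2 fold change beyond 1 in either direction. None of the 10 was called, at log2 fold changes between -0.33 and 0.24 and adjusted p between 0.531 and 0.990 in edgeR. In DESeq2 the number called was 0 as well, and 0 of 10 had an unadjusted edgeR p under 0.05, where 1891 of all genes did. Among all 16086 genes tested, the libraries labelled *Tet2*-/- had 0.0% called lower and 0.0124% called higher. The FPKM ranges of the 2 groups overlapped for all 10 members, whereas 16.5% of all genes lay wholly below and 3.06% wholly above WT. FPKM is scaled to library size alone, whereas the edgeR log2 fold changes are scaled further (TMM). With library sizes alone the median log2 fold change of all genes here was -0.07, against 0.0 in the main fit.

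IR in WT mice was compared with WT baseline to see how these genes changed with the operation in WT kidneys. None of the 10 was called, where 0.887% of the 16015 genes tested were called lower and 1.46% higher. The log2 fold changes ran from -0.66 for *Slc4a1* to 0.28 for *Atp6v0a4*, with a median of -0.05 against -0.03 over all genes. *Slc4a1* alone had an unadjusted edgeR p under 0.05, as 3640 of all genes did, at an adjusted p of 0.120, and DESeq2 called 0. It was also the only member whose IR levels lay wholly below baseline, a position that 10.4% of all genes shared, and no member lay wholly above, as 18.9% of all genes did.

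In mice labelled *Tet2*-/- the same operation was followed by lower levels of the type A exchanger and of an ammonia transporter. *Slc4a1* and *Rhcg* were called lower and no member was called higher, where 11.6% of the 16359 genes tested were called lower and 12.7% higher. The 2 of 10 members are thus a share not far above that of all genes. The same 2 genes lay wholly below baseline, compared with 17.9% of all genes, and none lay wholly above, compared with 40.5%. These shares rest on FPKM, and with library sizes alone the median log2 fold change of all genes was 0.27. In the main fit the median log2 fold change of the members was -0.30 against 0.04 over all genes. The other 8 members had log2 fold changes between -1.0 and 0.21 and were not called.

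**Figure D1:**
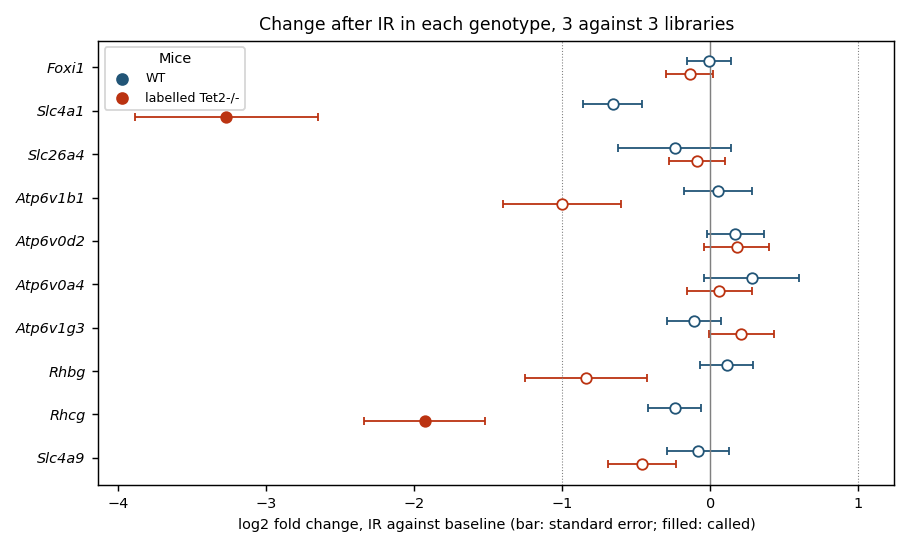
The log2 fold change of IR against baseline (x axis) is plotted for the 10 genes (y axis) in WT and in mice labelled *Tet2*-/-, 3 libraries against 3, with bars for the standard error and filled points for called genes. *Slc4a1* at -3.27 and *Rhcg* at -1.93 in mice labelled *Tet2*-/- are the only filled points, and the WT points lie between -0.66 and 0.28.

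After IR, the libraries labelled *Tet2*-/- were compared directly with WT. *Slc4a1* was the only member called, and it was lower. All genes gave 3.85% called lower and 2.3% called higher of 16186 tested. *Slc4a1*, *Rhcg* and *Atp6v0a4* lay wholly below WT, compared with 14.6% of all genes, and no member lay wholly above, compared with 22.0%. Unadjusted edgeR p-values were under 0.05 for 4 of 10, where 4671 of all 16186 genes tested had such a p. The members' median log2 fold change was -0.35 against 0.04 over all genes. The interaction term tests whether the change after IR differed between genotypes, and it was called at an adjusted p under 0.05. It was called for *Slc4a1* only, in the lower direction, where 5.39% of the 16741 genes tested were called lower and 3.79% higher. The groups hold 3 libraries each, and an exact two-sided permutation test of 3 against 3 can go no lower than p = 0.1.

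**Figure D2:**
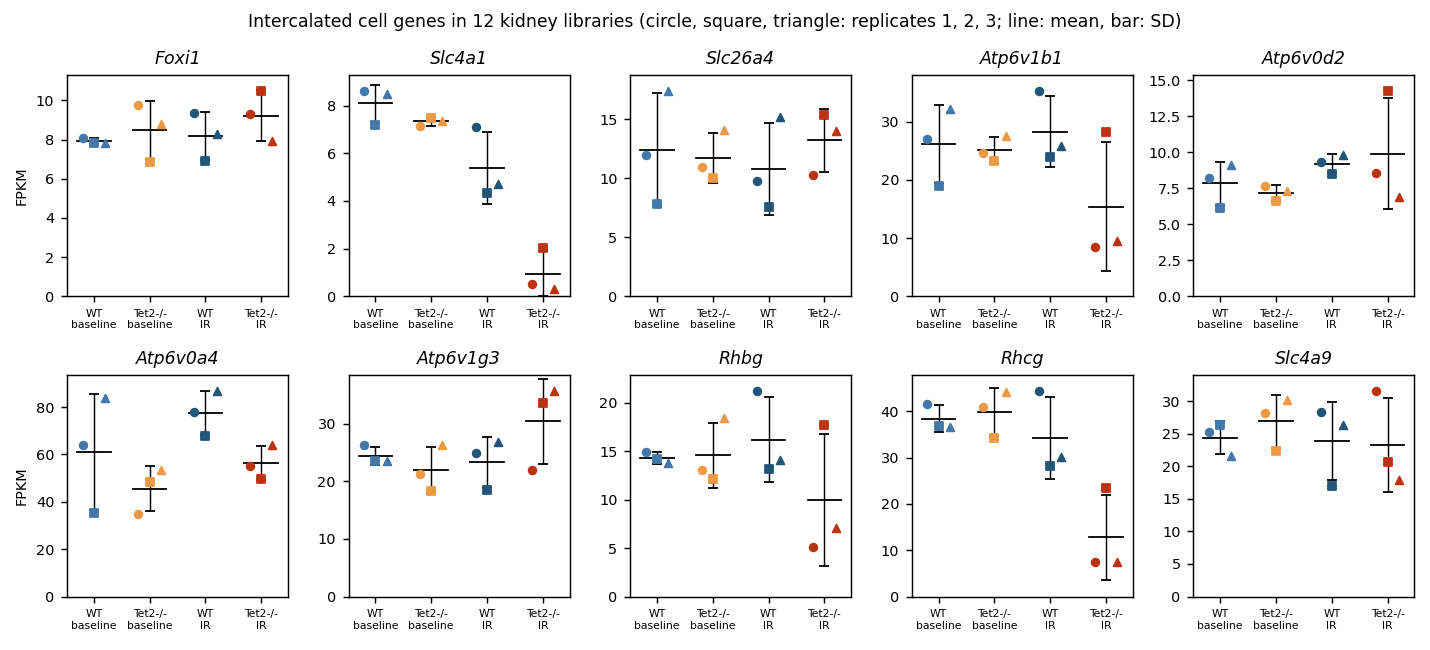
FPKM (y axis, from 0) of the 10 genes is plotted in the 12 libraries of the 4 groups, with circles, squares and triangles for replicates 1, 2 and 3, a line for the mean and a bar for the SD. *Slc4a1* lies between 0.294 and 2.02 FPKM in the 3 *Tet2*-/- IR kidneys and at 4.33 FPKM or more elsewhere, and replicate 2 of that group lies near the other groups for *Atp6v1b1* and *Rhbg*.

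*Slc4a1*, the bicarbonate exit of type A cells, was the member with the most negative log2 fold change in each comparison with IR libraries. Its level was 8.61, 7.20 and 8.48 FPKM in WT baseline and 7.13, 7.47 and 7.37 FPKM in *Tet2*-/- baseline kidneys. After IR it was 7.10, 4.33 and 4.72 FPKM in WT and 0.506, 2.02 and 0.294 FPKM in the mice labelled *Tet2*-/-. The baseline groups overlapped, the WT IR kidneys lay below both, and the 3 *Tet2*-/- IR kidneys lay below all other libraries without overlap. The 3 lowest values rest on 254, 1178 and 126 counts. Compared with baseline, *Slc4a1* fell 9.64-fold in mice labelled *Tet2*-/- (log2 fold change -3.27, SE 0.62, edgeR adjusted p = 0.00487). In WT the log2 fold change was -0.66 (SE 0.20, edgeR adjusted p = 0.120). This WT difference passed the adjusted p, though not the fold, in the replicate block fit (-0.68, adjusted p = 0.0399), in DESeq2 (-0.65, adjusted p = 0.0480) and without WT IR replicate 1 (-0.87, adjusted p = 0.0474). After IR *Slc4a1* was 6.35-fold lower in libraries labelled *Tet2*-/- than in WT (log2 fold change -2.67, SE 0.65, edgeR adjusted p = 0.0485). Under the alternatives this log2 fold change ran from -3.8 to -1.8. The interaction was -2.58 on the log2 scale (SE 0.68, edgeR adjusted p = 0.0393). These last 2 calls lie close to the threshold. The genotype difference after IR had an adjusted p between 0.0705 and 0.130 without any 1 of the other 5 libraries, and of 0.0344 without *Tet2*-/- IR replicate 2. Scaling by library size alone, which moved the median log2 fold change of all genes from 0.04 to 0.14, gave an edgeR adjusted p of 0.0647. The interaction had an adjusted p of 0.00206 without *Tet2*-/- IR replicate 2, of 0.0358 without replicate 3 of that group, of 0.0363 without WT IR replicate 2, and between 0.0682 and 0.0912 without any 1 of the other 9 libraries.

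The type B exchangers had no such low levels. Pendrin (*Slc26a4*) was at 11.9, 7.86 and 17.4 FPKM in WT baseline, 10.96, 10.045 and 14.1 FPKM in *Tet2*-/- baseline, 9.76, 7.55 and 15.2 FPKM in WT IR and 10.3, 15.4 and 13.97 FPKM in *Tet2*-/- IR kidneys. All 4 groups overlapped. Its log2 fold change in mice labelled *Tet2*-/- after IR was -0.09 (SE 0.19, edgeR adjusted p = 0.733), and its interaction was 0.19 (SE 0.46). AE4 (*Slc4a9*) was at 25.2, 26.3 and 21.5 FPKM in WT baseline, 28.2, 22.3 and 30.2 FPKM in *Tet2*-/- baseline, 28.3, 17.0 and 26.3 FPKM in WT IR and 31.5, 20.6 and 17.9 FPKM in *Tet2*-/- IR kidneys. These groups overlapped too. Its log2 fold change after IR was -0.08 (SE 0.21) in WT and -0.46 (SE 0.23, edgeR adjusted p = 0.141) in mice labelled *Tet2*-/-.

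A ratio of 2 genes within a library is not moved by the scaling of that library. *Slc4a1* to *Slc26a4* was 0.722, 0.916 and 0.487 in WT baseline, 0.651, 0.744 and 0.522 in *Tet2*-/- baseline, 0.727, 0.573 and 0.312 in WT IR and 0.0493, 0.131 and 0.0210 in *Tet2*-/- IR kidneys. The last 3 lay below the other 9, which ran from 0.312 to 0.916. *Slc4a1* to *Slc4a9* had a mean of 0.336 ± 0.0606 (SD, n = 3) in WT baseline, 0.277 ± 0.0502 in *Tet2*-/- baseline, 0.228 ± 0.0421 in WT IR and 0.0435 ± 0.0471 in *Tet2*-/- IR kidneys. *Slc26a4* to *Slc4a9*, both type B genes, had group means between 0.435 and 0.618 and overlapped between all groups. The ratio is FPKM to FPKM, and a lower value shows that the genes changed unequally. Ratios were given no test.

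**Figure D3:**
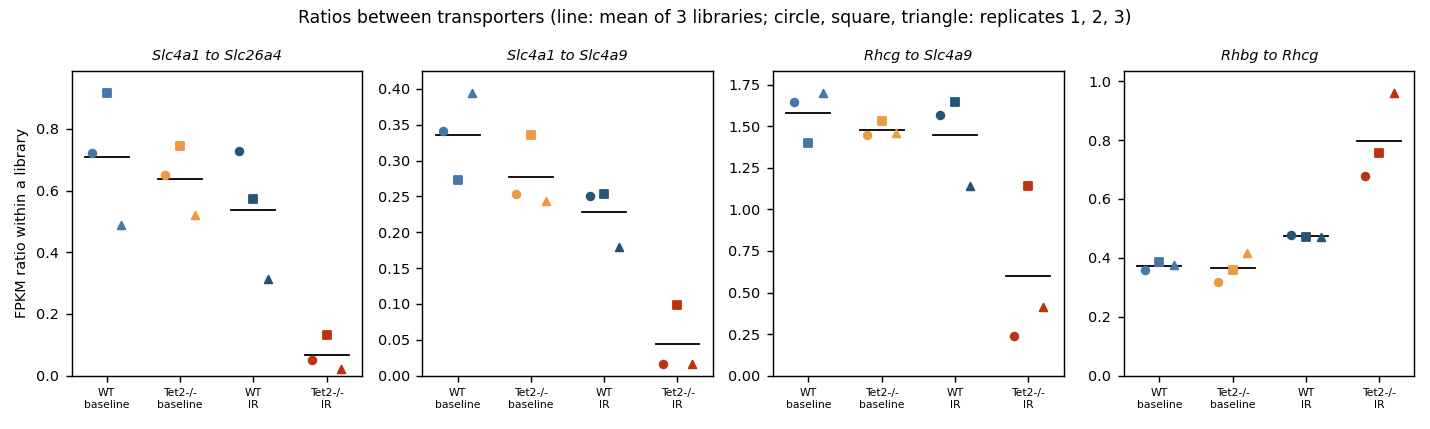
Within-library FPKM ratios (y axis, from 0) of 4 pairs of transporter genes are plotted in the 4 groups, with a line for the mean of 3 libraries and circles, squares and triangles for replicates 1, 2 and 3. *Slc4a1* to *Slc26a4* has a mean of 0.0672 in *Tet2*-/- IR kidneys and between 0.537 and 0.708 in the other groups, while *Rhbg* to *Rhcg* rises to 0.798.

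Of the ammonia transporters, *Rhcg* was called lower after IR in mice labelled *Tet2*-/- and *Rhbg* was not. *Rhcg* was at 41.7, 36.9 and 36.6 FPKM in WT baseline, 40.9, 34.2 and 44.2 FPKM in *Tet2*-/- baseline, 44.3, 28.1 and 30.0 FPKM in WT IR and 7.56, 23.5 and 7.41 FPKM in *Tet2*-/- IR kidneys. The 3 *Tet2*-/- IR kidneys lay below every other library, and replicate 2 stood between its own group and the rest. The fall was 3.82-fold in mice labelled *Tet2*-/- (log2 fold change -1.93, SE 0.41, edgeR adjusted p = 0.00796), against a log2 fold change of -0.24 in WT (SE 0.18, edgeR adjusted p = 0.475). Neither the difference from WT after IR (-1.55, SE 0.44, edgeR adjusted p = 0.0690) nor the interaction (-1.66, SE 0.48, edgeR adjusted p = 0.0531) passed the threshold. DESeq2 called both, with adjusted p of 0.00295 and 0.00648.

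*Rhbg* was at 15.0, 14.2 and 13.8 FPKM in WT baseline, 13.1, 12.2 and 18.4 FPKM in *Tet2*-/- baseline, 21.2, 13.2 and 14.1 FPKM in WT IR and 5.12, 17.8 and 7.11 FPKM in *Tet2*-/- IR kidneys. Replicates 1 and 3 of the last group were the lowest of the 12 libraries, and replicate 2 was among the highest. The log2 fold change after IR in mice labelled *Tet2*-/- was -0.84 (SE 0.41, edgeR adjusted p = 0.134). *Rhbg* to *Rhcg* was 0.373 ± 0.0128 in WT baseline, 0.364 ± 0.0490 in *Tet2*-/- baseline, 0.473 ± 0.00494 in WT IR and 0.798 ± 0.145 in *Tet2*-/- IR kidneys (SD, n = 3). In *Tet2*-/- IR replicates 1 to 3 this ratio was 0.678, 0.757 and 0.959, above all other libraries, which ran up to 0.478.

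Replicate 2 of the *Tet2*-/- IR group thus stood apart from its group for *Slc4a1*, *Rhcg*, *Rhbg* and *Atp6v1b1*. It was singled out by these values, so larger changes of the same genes without it follow from that choice. Without that library, 4 members were called lower after IR in mice labelled *Tet2*-/-, with log2 fold changes of -4.39 for *Slc4a1*, -2.60 for *Rhcg*, -1.67 for *Atp6v1b1* and -1.44 for *Rhbg* and adjusted p between 0.000288 and 0.00705 in edgeR. Without it 3 members, *Slc4a1*, *Rhcg* and *Atp6v1b1*, were called against WT after IR, and all 4 for the interaction. In the same fits 12.3% of all genes were called lower after IR in mice labelled *Tet2*-/-, 2.21% against WT after IR and 5.35% for the interaction. Without replicate 3 of that group, the library high in adipocyte genes, the calls after IR in mice labelled *Tet2*-/- stayed at *Slc4a1* and *Rhcg*. Markers of other distal segments were also highest in replicate 2 of its group. On the log2(FPKM + 0.1) scale, the mean level in replicates 1, 2 and 3 was 4.63, 4.97 and 3.86 for 8 principal cell markers, 6.46, 6.62 and 4.73 for 3 thick ascending limb markers and 2.45, 2.69 and 1.58 for 3 distal convoluted tubule markers. In these lists replicate 1 lay nearer to replicate 2 than to replicate 3. For 7 proximal tubule markers the mean on that scale was 5.81, 5.71 and 6.02, so it was nearly level. Their summed level, set mostly by the genes with the highest FPKM, was 1360, 730 and 1050 FPKM in *Tet2*-/- IR replicates 1, 2 and 3. It was between 2090 and 2620 FPKM in WT IR and between 3210 and 3950 FPKM at baseline. Not all of these markers were lowest in replicate 2, and *Cubn* was highest there, at 9.21, 10.4 and 6.70 FPKM in replicates 1, 2 and 3. The part of these markers in the result was not tested.

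None of the 4 V-ATPase genes was called in any comparison by edgeR, and the log2 fold change of the B1 subunit gene was the most negative of the 4 in each comparison of IR kidneys labelled *Tet2*-/-. *Atp6v1b1*, part of the ATP-splitting head, was at 27.1, 18.9 and 32.2 FPKM in WT baseline, 24.6, 23.2 and 27.5 FPKM in *Tet2*-/- baseline, 35.3, 23.9 and 25.8 FPKM in WT IR and 8.46, 28.2 and 9.57 FPKM in *Tet2*-/- IR kidneys. Replicates 1 and 3 of the last group were the lowest of all 12, and replicate 2 was within the range of the others. Its log2 fold change after IR in mice labelled *Tet2*-/- was -1.0 (SE 0.40, edgeR adjusted p = 0.0770), which did not pass. In the fit with the replicate number as a block (replicate block) it was -1.19 with an adjusted p of 0.0199, so 3 members were called in place of 2. DESeq2 called it as well (-1.04, adjusted p = 0.0191). The interaction was -1.02 (SE 0.51, edgeR adjusted p = 0.222).

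*Atp6v0a4*, the a4 subunit of the membrane part, was at 64.2, 35.3 and 83.8 FPKM in WT baseline, 34.8, 48.6 and 53.3 FPKM in *Tet2*-/- baseline, 77.9, 67.9 and 86.7 FPKM in WT IR and 55.3, 49.7 and 64.2 FPKM in *Tet2*-/- IR kidneys. The 3 *Tet2*-/- IR kidneys lay below the 3 WT IR kidneys. WT baseline overlapped both IR groups, and *Tet2*-/- baseline overlapped the *Tet2*-/- IR kidneys but lay below the WT IR kidneys. The log2 fold change between genotypes after IR was -0.56 (SE 0.21, edgeR adjusted p = 0.139), and after IR within the mice labelled *Tet2*-/- it was 0.06 (SE 0.22).

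The d2 subunit gene *Atp6v0d2*, also of the membrane part, was at 8.22, 6.15 and 9.11 FPKM in WT baseline, 7.65, 6.59 and 7.31 FPKM in *Tet2*-/- baseline, 9.33, 8.47 and 9.79 FPKM in WT IR and 8.53, 14.2 and 6.91 FPKM in *Tet2*-/- IR kidneys. *Atp6v1g3*, the G3 subunit of the V1 stalk, was at 26.3, 23.5 and 23.5 FPKM, 21.2, 18.4 and 26.3 FPKM, 25.0, 18.5 and 26.8 FPKM and 22.0, 33.7 and 35.6 FPKM in the same groups. Neither was called in any comparison, and the groups overlapped in each comparison. Their log2 fold changes after IR in mice labelled *Tet2*-/- were 0.18 (SE 0.22) and 0.21 (SE 0.22). *Atp6v1b1* and *Atp6v1g3* were at near equal FPKM outside the *Tet2*-/- IR group, with mean ratios between 1.07 and 1.22 and single libraries between 0.808 and 1.41. Within that group the ratio was 0.385, 0.839 and 0.269, so only replicates 1 and 3 lay below the other libraries.

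Each of these subunits has a widely expressed partner that can take its place in the pump. *Atp6v1b2*, the partner of *Atp6v1b1*, was at 163, 129 and 222 FPKM in *Tet2*-/- IR kidneys and between 73.3 and 132 FPKM in the other libraries, which overlap that range. Its log2 fold change after IR in mice labelled *Tet2*-/- was 0.81 (SE 0.26, edgeR adjusted p = 0.0358), under the fold needed for a call. *Atp6v0a1*, the partner of *Atp6v0a4*, was at 29.5, 25.5 and 31.8 FPKM in *Tet2*-/- IR kidneys, above all other libraries, which ran from 10.8 to 16.8 FPKM. It differed from WT after IR by 0.92 on the log2 scale (SE 0.18, edgeR adjusted p = 0.0269), again under the fold needed. *Atp6v0d1* and *Atp6v1g1*, the partners of the d2 and G3 genes, had log2 fold changes of -0.16 (SE 0.18) and -0.20 (SE 0.25) after IR in mice labelled *Tet2*-/-.

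The ratio of the kidney isoform to its partner was lowest in the *Tet2*-/- IR group for the a and B subunits. *Atp6v0a4* to *Atp6v0a1* was 1.88, 1.95 and 2.02 in *Tet2*-/- IR kidneys and between 2.11 and 7.76 in the other 9 libraries, with no overlap. *Atp6v1b1* to *Atp6v1b2* was 0.0518, 0.219 and 0.0431 in *Tet2*-/- IR kidneys and between 0.198 and 0.369 elsewhere, so only replicates 1 and 3 lay below. The d2 to d1 ratio had group means between 0.133 and 0.187 and the G3 to G1 ratio between 0.182 and 0.247, and in *Tet2*-/- IR kidneys they ran from 0.0997 to 0.279 and from 0.213 to 0.304. The G3 to G1 ratio lay above the WT IR range of 0.160 to 0.199 there, and the d2 to d1 ratio overlapped all 3 other groups. These ratios were given no test.

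**Figure D4:**
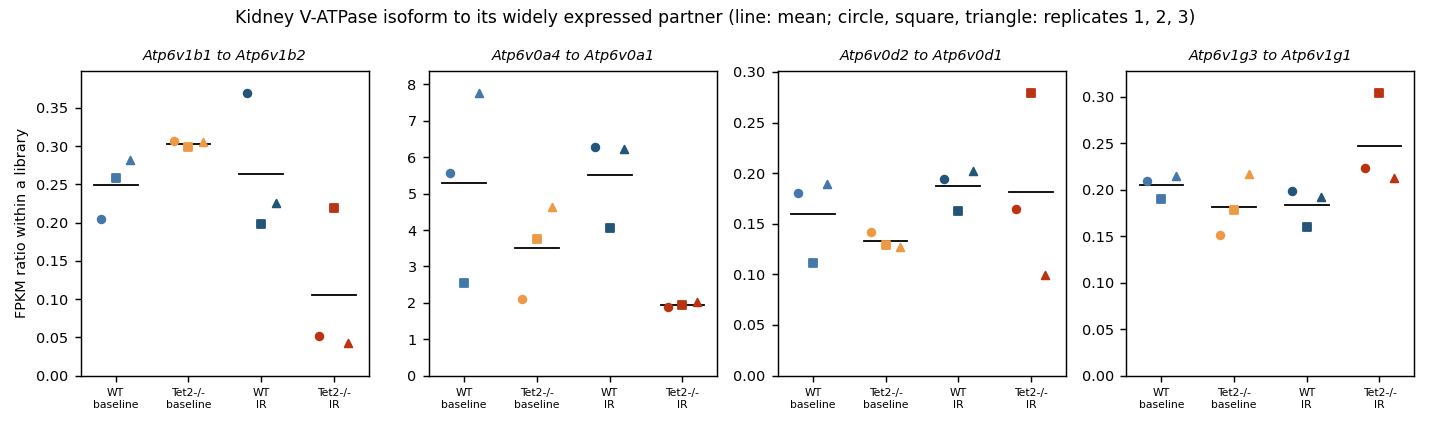
Within-library FPKM ratios (y axis, from 0) of each kidney V-ATPase isoform to its widely expressed partner are plotted in the 4 groups, with a line for the mean and circles, squares and triangles for replicates 1, 2 and 3. The 3 *Tet2*-/- IR kidneys lie between 1.88 and 2.02 for *Atp6v0a4* to *Atp6v0a1*, below the other 9, and only replicates 1 and 3 are low for *Atp6v1b1* to *Atp6v1b2*.

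*Foxi1*, the transcription factor, was at 8.08, 7.85 and 7.80 FPKM in WT baseline, 9.78, 6.83 and 8.81 FPKM in *Tet2*-/- baseline, 9.36, 6.92 and 8.27 FPKM in WT IR and 9.28, 10.5 and 7.90 FPKM in *Tet2*-/- IR kidneys. The groups overlapped. Its log2 fold change was -0.01 (SE 0.15) after IR in WT, -0.14 (SE 0.16, edgeR adjusted p = 0.499) after IR in mice labelled *Tet2*-/- and 0.06 (SE 0.17) between genotypes after IR. The coefficient of variation of the members within the *Tet2*-/- IR group ran from 13.0% for *Atp6v0a4* to 72.0% for *Rhcg* and *Atp6v1b1* and 100% for *Slc4a1*.

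A further 22 genes known from intercalated cells were counted, all of them tested. Over all genes, 3640 of 16015 had an unadjusted edgeR p under 0.05 after IR in WT and 1891 of 16086 between genotypes at baseline. Between genotypes after IR 4671 of 16186 had one, and 4551 of 16741 for the interaction. After IR 0 were called by edgeR in WT (5 at an unadjusted p under 0.05 and 2 called by DESeq2), while in mice labelled *Tet2*-/- 5 were called lower and 0 higher, where 11.6% and 12.7% of all genes were, with a list median of -0.52 against 0.04 over all genes. Between genotypes 0 were called at baseline by edgeR or DESeq2 (2 at an unadjusted p under 0.05). After IR 1 was called lower by edgeR, where 3.85% of all genes were, with 4 at an unadjusted p under 0.05 and 4 called by DESeq2. For the interaction 0 were called by edgeR, with 5 at an unadjusted p under 0.05 and 2 called by DESeq2. That 1 gene was *Atp4a*, a proton-potassium pump subunit, at 1.10, 1.66 and 0.344 FPKM in *Tet2*-/- IR and 6.17, 2.96 and 5.50 FPKM in WT IR kidneys (log2 fold change -2.39, SE 0.55, edgeR adjusted p = 0.0407). *Car15*, a carbonic anhydrase gene, had the highest log2 fold change of the list in WT after IR, at 0.98 (SE 0.22, edgeR adjusted p = 0.0688), and *P2ry14*, a nucleotide sugar receptor gene, the lowest, at -1.29 (SE 0.43, edgeR adjusted p = 0.144). In *Tet2*-/- IR replicates 1, 2 and 3 the mean level of the list was 2.14, 2.76 and 1.70 on the log2(FPKM + 0.1) scale, against 2.45 to 2.80 in the other 9 libraries, so replicate 2 was again the highest of its group.

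Of 21 other V-ATPase subunit genes, 20 were tested. In mice labelled *Tet2*-/- 2 of the 20 were called lower after IR, a share under the 11.6% of all genes, and 0 higher. In the other comparisons 0 were called by edgeR, where 1 to 6 had an unadjusted edgeR p under 0.05 and DESeq2 called 2 for the interaction and 0 elsewhere. After IR, *Atp6v1a*, the catalytic subunit gene, was lower by genotype at -0.64 on the log2 scale (edgeR adjusted p = 0.0477), a change under the fold needed for a call. Of 12 genes of ammonia and bicarbonate handling outside intercalated cells, edgeR called 1 lower and 2 higher after IR in WT (0.887% and 1.46% of all genes) and 3 lower and 3 higher in mice labelled *Tet2*-/- (11.6% and 12.7%). It called 0 between genotypes at baseline, 3 lower between genotypes after IR (3.85% of all genes) and 3 lower for the interaction (5.39%). DESeq2 called 4, 6, 0, 4 and 6 in the same order, and 1 had an unadjusted edgeR p under 0.05 at baseline. *Car4*, the membrane carbonic anhydrase, fell by 1.83 on the log2 scale in WT (SE 0.26, edgeR adjusted p = 0.0197) and was lower again by genotype after IR (-1.97, SE 0.20, edgeR adjusted p = 0.0104). *Slc38a3*, a glutamine transporter that feeds ammonia formation, rose by 1.84 in WT (SE 0.24, edgeR adjusted p = 0.0161). Its log2 fold change in mice labelled *Tet2*-/- was 0.42 (SE 0.35, edgeR adjusted p = 0.355), and its interaction of -1.38 (SE 0.47, edgeR adjusted p = 0.0880) did not pass.

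Other nephron segments were counted beside the members, where 11.6% of all genes were called lower after IR in mice labelled *Tet2*-/-, 3.85% between genotypes after IR and 5.39% for the interaction. Of 8 principal cell markers, which mark the neighbouring cells of the collecting duct, 2 were called lower after IR in mice labelled *Tet2*-/- and 0 in any other comparison by edgeR. DESeq2 called 2 between genotypes after IR and 1 for the interaction, where 5 and 3 had an unadjusted edgeR p under 0.05. Over all genes 4671 of 16186 and 4551 of 16741 had such a p. Of 7 proximal tubule markers, edgeR called 4 lower after IR in mice labelled *Tet2*-/-, and 3 lower each between genotypes after IR and for the interaction. DESeq2 called 1 after IR in WT, 4 after IR in mice labelled *Tet2*-/-, 5 between genotypes after IR and 4 for the interaction. Of 3 thick ascending limb and 3 distal convoluted tubule markers, 1 each was called lower after IR in mice labelled *Tet2*-/-, and 0 by edgeR in the other comparisons, where DESeq2 called 1 each between genotypes after IR. Of 5 adipocyte markers, 2 to 5 were tested. By edgeR 1 was called higher after IR in mice labelled *Tet2*-/- (12.7% of all genes) and 2 for the interaction (3.79%). Calls by DESeq2 were 2 after IR in WT, 1 after IR in mice labelled *Tet2*-/- and 1 between genotypes at baseline. There were 2 between genotypes after IR and 3 for the interaction.

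Other cells also use members of the set. *Slc4a1* encodes band 3 of the red cell membrane, and *Atp6v0d2* is used by osteoclasts and related macrophages. Of 13 red cell genes, 9 were tested and 0 were called in any comparison by edgeR or DESeq2, with at most 2 at an unadjusted edgeR p under 0.05. Their summed level was 306, 296 and 341 FPKM in *Tet2*-/- IR kidneys and between 41.6 and 340 FPKM in WT IR kidneys, most of it globin, whose near-identical copies share reads. Over the 6 baseline kidneys it was between 61.6 and 310 FPKM. Of the members outside the globins, *Alas2* was between 0.311 and 1.499 FPKM, and *Rhag* and *Rhd* were at or under 0.036 FPKM in all 12 libraries. The part of red cells in the *Slc4a1* values was not tested. Of 8 osteoclast-type macrophage genes, *Dcstamp*, *Ocstamp* and *Oscar* were at or under 0.083 FPKM in all libraries, while *Ctsk* was between 0.567 and 2.32 FPKM and *Acp5* between 25.5 and 65.1 FPKM. Up to 6 were tested, of which 0 were called after IR in WT, 3 (*Mmp9*, *Calcr* and *Gpnmb*) were called higher after IR in mice labelled *Tet2*-/- (12.7% of all genes), and 1 each way between genotypes after IR (3.85% lower and 2.3% higher) and for the interaction (5.39% and 3.79%). After IR, *Mmp9*, a matrix protease also made by neutrophils, was 4.10 higher on the log2 scale in libraries labelled *Tet2*-/- (SE 0.73, edgeR adjusted p = 0.0218) and *Acp5*, an acid phosphatase, was 1.06 lower at a log2 fold change of -1.06 (SE 0.18, edgeR adjusted p = 0.0201).

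The mean profile of the 10 genes over the 12 libraries was compared with 12203 other genes with a mean of at least 1 FPKM. Each profile was taken as log2(FPKM + 0.1), centred on its own mean, and likeness as the root mean square difference. The 5 nearest were *Clvs1* at 0.128, *Gtf2i* at 0.131, *Ccdc138* at 0.144, *Sema3b* at 0.147 and *Pfkm* at 0.149. The members themselves lay between 0.257 for *Rhbg* and 1.17 for *Slc4a1* from their own mean, so the mean profile described *Rhbg* better than *Slc4a1*. All points share the same libraries and depths, and no test was made.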

How the data were processed

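RNA-seq was analysed in 12 mouse kidney libraries, 3 in each of 4 groups taken from the labels. The authors' processing notes name STAR, HOMER and edgeR on mm9. The authors deposited expected counts per RefSeq transcript without normalization and FPKM of the same transcripts. 38.7% of the count values were not whole, in steps of 0.5, and since the planned design had assumed whole counts, these values were rounded for the count models (edgeR, DESeq2). For the 5569 of 24421 symbols with several of the 34600 transcripts, the one with the highest total was used.

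The groups were compared in R 4.3.3 with edgeR 4.0.16 (filterByExpr, TMM, quasi-likelihood F test, Benjamini-Hochberg adjustment over all genes tested). The 6 libraries of a comparison entered each fit, and all 12 the interaction. A call needed an adjusted p under 0.05 with a log2 fold change beyond 1 in either direction, or the adjusted p alone for the interaction. The procedure was tested on simulated counts. Alternatives were DESeq2 1.42.0, limma 3.58.1 on log2(FPKM + 1) or log2(FPKM + 0.1), library sizes alone, other filters, all transcripts, 1 fit of all 12, each library left out and a replicate block. Figures were drawn with Python 3.11.15 and matplotlib 3.10.9.

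Members and lists were chosen with earlier results of these data known. Beyond the 10 members and each V-ATPase partner, genes were named by a rule. It took, per list, those with the lowest and highest log2 fold change at a mean of at least 1 FPKM after IR in WT or between genotypes after IR, and the 5 genes nearest to the members' mean profile. Genes outside this rule, such as the other red cell and osteoclast markers, were named after their values were seen, and some list members are not reported here. Deviations of same-numbered libraries, which are different mice, correlated at 0.349, 0.349 and 0.344 between baseline and IR in WT. In mice labelled *Tet2*-/- these correlations were 0.120, 0.350 and 0.202. Between genotypes they were -0.173, -0.150 and 0.052 at baseline and 0, 0.206 and 0.303 after IR. No threshold for pairing was set. The main fits used no pairing, and the replicate block was run as an alternative only. Nothing in the labels says whether libraries of a group came from separate litters or days, so p-values measure the spread between these libraries only. The promoter table from RefSeq (GRCm38.p6) matched 6 members.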

Additional observations from a re-analysis of the deposited data

Results flagged for a closer look

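The change of *Slc4a1* after IR differed between the genotypes in the test of the interaction itself, at -2.58 on the log2 scale (SE 0.68, edgeR adjusted p = 0.0393, 12 libraries). All 3 IR kidneys labelled *Tet2*-/- lay below their baseline, as did all 3 in WT, by less. Under the alternatives the interaction ran from -3.77 to -1.67 with adjusted p between 0.00149 and 0.0912.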

How the results depend on the processing

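After IR in WT and between genotypes at baseline, 0 members were called under every alternative run. After IR in mice labelled *Tet2*-/-, *Slc4a1* and *Rhcg* were called under all of them. There the count was 2, 3 with DESeq2 and with the replicate block, and from 2 to 4 on leaving out each library, with 4 without *Tet2*-/- IR replicate 2. Between genotypes after IR it was 1, but 2 with DESeq2 and with all 12 libraries in 1 fit, 0 with library sizes alone, 1 with the replicate block, and from 0 to 3 on leaving out each library, with 3 without *Tet2*-/- IR replicate 2 and 0 without any other. For the interaction it was 1, but 2 with DESeq2 and with all deposited transcripts, 0 with library sizes alone, 1 with the replicate block, and from 0 to 4 on leaving out each library, with 4 without *Tet2*-/- IR replicate 2, 2 without WT IR replicate 2, 1 without *Tet2*-/- IR replicate 3 and 0 without any other. With library sizes alone, *Slc4a1* had log2 fold changes of -2.51 between genotypes after IR and -2.39 for the interaction (adjusted p = 0.0647 and 0.0581), and the median of all genes moved to 0.27 after IR in mice labelled *Tet2*-/- and to 0.24 for the interaction. Fewer libraries leave fewer degrees of freedom, and otherwise the cause was not tested. No called value changed direction in the 800 member values of the alternatives. There 16 calls were lost and 14 gained, in 4 members, and 63 of the 721 values that were not called either way had another sign. With 3 libraries a group, *Rhbg* after IR in mice labelled *Tet2*-/- was called only without replicate 2, and *Atp6v1b1* there was called without replicate 2, with DESeq2 and with the replicate block (adjusted p = 0.0199) but not in the fit without the block.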
